A study of Homo sapiens with 6 samples.

Results

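The genes described here are 54 genes of mitosis, the kinetochore and the cyclins, taken by symbol from a list of mitotic kinases, checkpoint proteins, cyclins and their kinases, kinetochore and spindle proteins, and regulators of mitotic exit. All 54 were found among the 58780 annotated genes of the tables, all 54 passed the filter on low counts, and they lie on 17 chromosomes. RNA-seq had been run on 6 libraries of HCT116, an established human colorectal carcinoma cell line. In 3 libraries the cells had received auxin for 16 h; the other 3 are DMSO controls, that is, solvent alone, and their labels give no time. Auxin is a plant hormone used in cell lines to trigger the degradation of a protein that carries an auxin-inducible degron. The labels name neither a degron-tagged protein nor a clone or other genetic change, so no targeted gene could be checked here, and no statement is made on which protein auxin acted on. The libraries are numbered as biological replicates 1, 2 and 3 in each group, and values below are given in that order. The p-values measure the spread between these libraries.

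Cells enter mitosis when CDK1 bound to cyclin B becomes active. WEE1 and PKMYT1 place inhibitory phosphates on CDK1, and the CDC25 phosphatases remove them. Aurora and Polo kinases then build the spindle and prepare the centromeres, where the kinetochore ties each chromatid to microtubules. The spindle assembly checkpoint holds back the anaphase-promoting complex until all chromosomes are attached. Once CDC20 activates that complex, securin and cyclin B are destroyed and separase cuts cohesin. In growing cells many of these genes are transcribed in waves in the G2 and M phases under the MuvB complex with MYBL2 and FOXM1, while the D and E cyclins with CDK4, CDK6 and CDK2 act earlier, in G1 and at the entry to S phase. Bulk RNA cannot tell fewer cells in a stage of the cycle apart from less RNA per cell.

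Total expected counts, the estimated reads per gene summed over a library, lay between 270781969 and 546128199 in the DMSO group and between 234037969 and 625895062 in the auxin group, and replicate 1 was the deepest library of both groups. The members were well covered: their expected counts per library ran from 187 to 645703. Epithelial markers fitted the labelled cell line, with 6 of 7 genes at a mean of at least 1 CPM (counts relative to library size, adjusted by TMM factors) and a summed level of 1800 to 2460 TPM (a transcript level scaled for length and library) with DMSO and 2210 to 2650 TPM after auxin. Of these genes EPCAM, KRT8, KRT18, KRT19 and CDH1 were called higher, while CLDN7 was 12.3-fold lower (log2 fold change −3.62). The calls of the higher genes were all lost in both limma fits on TPM. EPCAM kept its call in 11 of 18 alternatives and KRT18 in 12, while CLDN7 kept its call in all 18. Markers of other cell types were close to absent. Summed levels were 1.30 to 2.62 TPM with DMSO and 0.57 to 1.36 TPM after auxin for 5 fibroblast genes, with LUM listed at 0, at most 0.89 TPM in any library for 5 haematopoietic genes, 3 of them listed at 0, and at most 0.11 TPM for 4 endothelial genes.

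Most of the mitotic genes were lower after auxin. With edgeR's quasi-likelihood test and Benjamini-Hochberg adjustment over the 19725 genes tested, 51 of the 54 members (94.4%) were lower at an adjusted p under 0.05, whereas 26.9% of all genes tested were. CDK6 was higher, in a table where 25.4% of genes were, and BUB3 and MAD1L1 did not pass the test. In either direction 52.3% of all genes passed. The median log2 fold change of the members, auxin against DMSO, was −0.98, and that of all genes tested was 0.02. At least 2-fold lower were 27 members, against 13.3% of all genes, and at least 4-fold lower were 8, against 4.9%. For 53 members no CPM of one group fell inside the other group's range (60.3% of all genes; 30.4% with every auxin library below every DMSO library), and BUB3 was the exception. All members are protein-coding, and among the 14154 protein-coding genes tested 4727 were called lower, 2271 of them at least 2-fold. In 9642 of those genes the groups did not overlap, and their median log2 fold change was −0.01. On a scale per length, the median of the members' mean levels was 33.3 TPM with DMSO and 17.2 TPM after auxin.

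**Figure D1:**
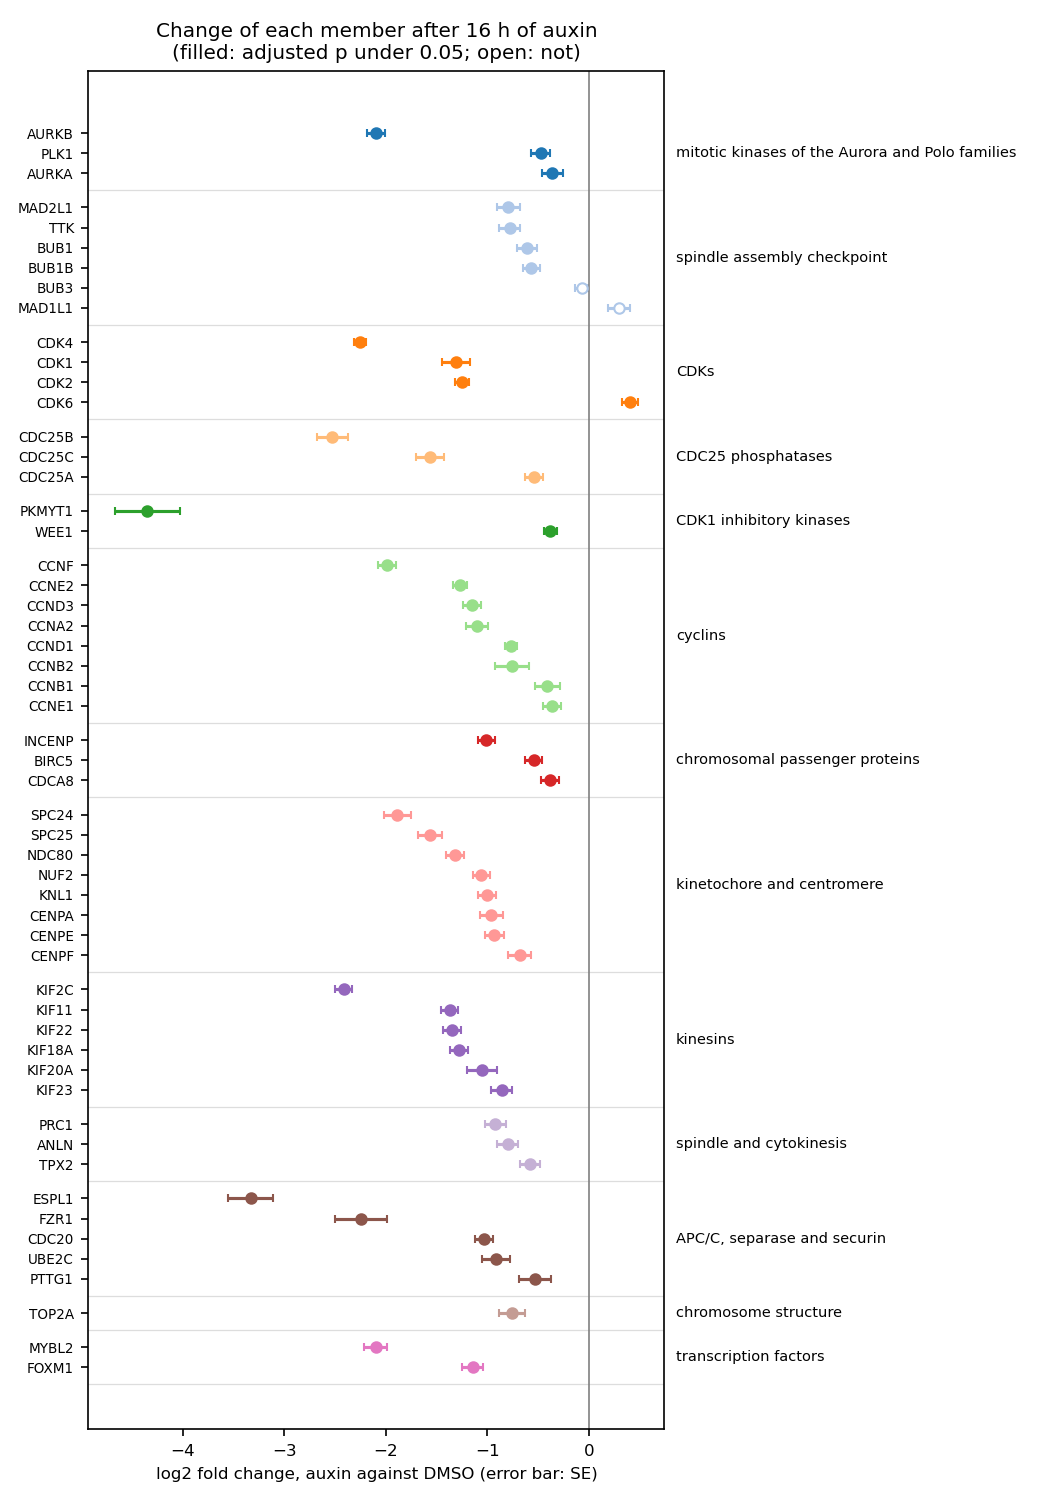
Log2 fold change, auxin 16 h against DMSO, of the 54 genes, grouped by role on the vertical axis; bars are the standard error and filled points have an adjusted p under 0.05 by edgeR's quasi-likelihood test. The points run from −4.35 for PKMYT1 to 0.40 for CDK6, and the open points are BUB3 and MAD1L1.

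Among the Aurora and Polo kinases AURKB fell most. AURKB, the kinase of the chromosomal passenger complex (ENSG00000178999.12, chr17:8204733-8210600), stood at 28.8, 25.7 and 28.4 CPM with DMSO and at 6.48, 5.95 and 6.95 CPM after auxin. Its 2 groups lay far apart (log2 fold change −2.10, SE 0.09, adjusted p = 4.81e-06). AURKA, the centrosomal Aurora kinase (chr20:56369389-56392337), had 45.4, 46.5 and 54.5 CPM against 34.0, 37.7 and 42.4 CPM (log2 fold change −0.36, SE 0.10, adjusted p = 0.0232). The groups of AURKA did not overlap, but its highest auxin library lay close under its lowest DMSO library, and the call was lost in 5 of 18 alternatives: without DMSO replicate 3, without auxin replicate 2, with upper-quartile factors and in both limma fits on TPM (adjusted p up to 0.0792). PLK1, the Polo kinase of mitotic entry and spindle assembly (chr16:23677656-23690367), had 58.1, 48.0 and 57.7 CPM against 37.0, 38.0 and 42.9 CPM, with no overlap (log2 fold change −0.48, SE 0.10, adjusted p = 0.00488). With a GC correction PLK1 had a log2 fold change of −0.11 and no call (adjusted p up to 0.443). On the linear scale the fall was 4.28-fold for AURKB, 1.28-fold for AURKA and 1.39-fold for PLK1; the differences between genes were not tested.

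The chromosomal passenger complex carries AURKB to centromeres and later to the spindle midzone. Its scaffold INCENP had 56.7, 49.7 and 57.5 CPM with DMSO and 26.7, 25.1 and 29.5 CPM after auxin, which was 2.02-fold lower (log2 fold change −1.01, SE 0.09, adjusted p = 8.03e-05). BIRC5, which encodes survivin, had 65.2, 59.9 and 71.8 CPM against 42.4, 43.9 and 48.5 CPM (log2 fold change −0.55, SE 0.09, adjusted p = 0.00144). CDCA8, which encodes borealin, fell by 0.38 on the log2 scale (adjusted p = 0.00752). All 4 RNAs of the complex, AURKB included, were lower in every auxin library than in any DMSO library, but by unequal amounts.

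The spindle assembly checkpoint had 4 lower genes of 6 (median −0.59) and held both members that did not pass. MAD2L1, which encodes the MAD2 protein that restrains CDC20, had 101, 115 and 126 CPM with DMSO and 57.3, 68.7 and 70.7 CPM after auxin (log2 fold change −0.79, SE 0.11, adjusted p = 0.000808). TTK, the MPS1 kinase that starts checkpoint signalling, had 81.5, 89.9 and 97.3 CPM against 45.4, 54.1 and 57.2 CPM (log2 fold change −0.78, SE 0.10, adjusted p = 0.000663). Both genes separated the groups fully. The kinase BUB1 and its relative BUB1B fell by 0.61 and 0.57 on the log2 scale. BUB3, their binding partner, had 289, 301 and 319.9 CPM with DMSO and 273, 296 and 296 CPM after auxin, and the groups overlapped (log2 fold change −0.07, SE 0.07, adjusted p = 0.404). BUB3 was lower in 3 of 3 same-numbered pairs, with an adjusted p of 0.0662 with the replicate block. MAD1L1, which recruits MAD2 to the kinetochore, had 11.2, 8.97 and 10.7 CPM against 13.6, 11.7 and 12.6 CPM. Every auxin library of MAD1L1 was above every DMSO library (log2 fold change 0.29, SE 0.11, adjusted p = 0.0569), and with the replicate number as a block its adjusted p was 0.000916. No checkpoint gene was as much as 2-fold lower.

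The 4 cyclin-dependent kinases did not move together: 3 fell and 1 rose. CDK4, the kinase of the D cyclins (ENSG00000135446.16, chr12:57747727-57756013), had 109, 113 and 114 CPM with DMSO and 24.4, 22.3 and 24.0 CPM after auxin. Libraries within a group were nearly alike, and the fall was 4.76-fold (log2 fold change −2.25, SE 0.06, adjusted p = 1.58e-06). CDK1, the kinase of mitotic entry (chr10:60778331-60794852), had 149, 174 and 197 CPM against 58.6, 75.7 and 75.4 CPM, a 2.48-fold fall (log2 fold change −1.31, SE 0.14, adjusted p = 0.000199). CDK2, which pairs with cyclins E and A, fell by 1.25 on the log2 scale (SE 0.07, adjusted p = 1.19e-05). CDK6, the other partner of the D cyclins (chr7:92604921-92836594), went the opposite way, from 688, 592 and 604 CPM to 855, 841 and 797 CPM. All its auxin libraries were above all its DMSO libraries (log2 fold change 0.40, SE 0.08, adjusted p = 0.00425). The rise of CDK6 was not called with library sizes alone as the scale or in limma on TPM (adjusted p up to 0.502). Its log2 fold change was at least 0.2485 under every alternative tried. On the scale per length CDK4 was at 66.8 TPM and CDK6 at 57.0 TPM with DMSO, and at 17.7 TPM and 66.5 TPM after auxin, so that their order turned.

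The CDK1 switch showed large falls on both of its sides. PKMYT1, the membrane-bound kinase that inhibits CDK1 (ENSG00000127564.16, chr16:2968024-2980539), fell most of all members, from 29.7, 17.6 and 19.9 CPM to 1.54, 0.870 and 0.844 CPM. DMSO replicate 1 was above the other DMSO libraries and auxin replicate 1 above the other auxin libraries, yet the groups were 20.3-fold apart (log2 fold change −4.35, SE 0.32, adjusted p = 4.37e-05). WEE1, its nuclear relative, had 71.5, 68.2 and 71.8 CPM against 57.9, 52.1 and 52.6 CPM, a 1.30-fold fall (log2 fold change −0.38, SE 0.06, adjusted p = 0.0016). Of the activating phosphatases, CDC25B, which starts CDK1 activation (ENSG00000101224.17, chr20:3786772-3806121), went from 129, 114 and 106 CPM to 24.8, 17.6 and 18.0 CPM, 5.76-fold lower (log2 fold change −2.53, SE 0.15, adjusted p = 1.83e-05). CDC25C had 6.33, 7.58 and 7.73 CPM against 2.09, 2.63 and 2.61 CPM (log2 fold change −1.56, SE 0.14, adjusted p = 9.75e-05). CDC25A, which also acts at the entry to S phase, fell by 0.54 on the log2 scale. Kinases and phosphatases of opposite action on CDK1 were therefore both lower in every auxin library. PKMYT1 overlaps PAQR4 on the opposite strand over 4245 bases, and PAQR4, with 1.14 times its counts, also had a lower level (log2 fold change −2.83). CDC25C overlaps FAM53C over 6421 bases, which had 9.94 times its counts and a log2 fold change of 0.00. Whether counting used the strand is not given in the sources used here, so reads of such pairs may not be fully separated.

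**Figure D2:**
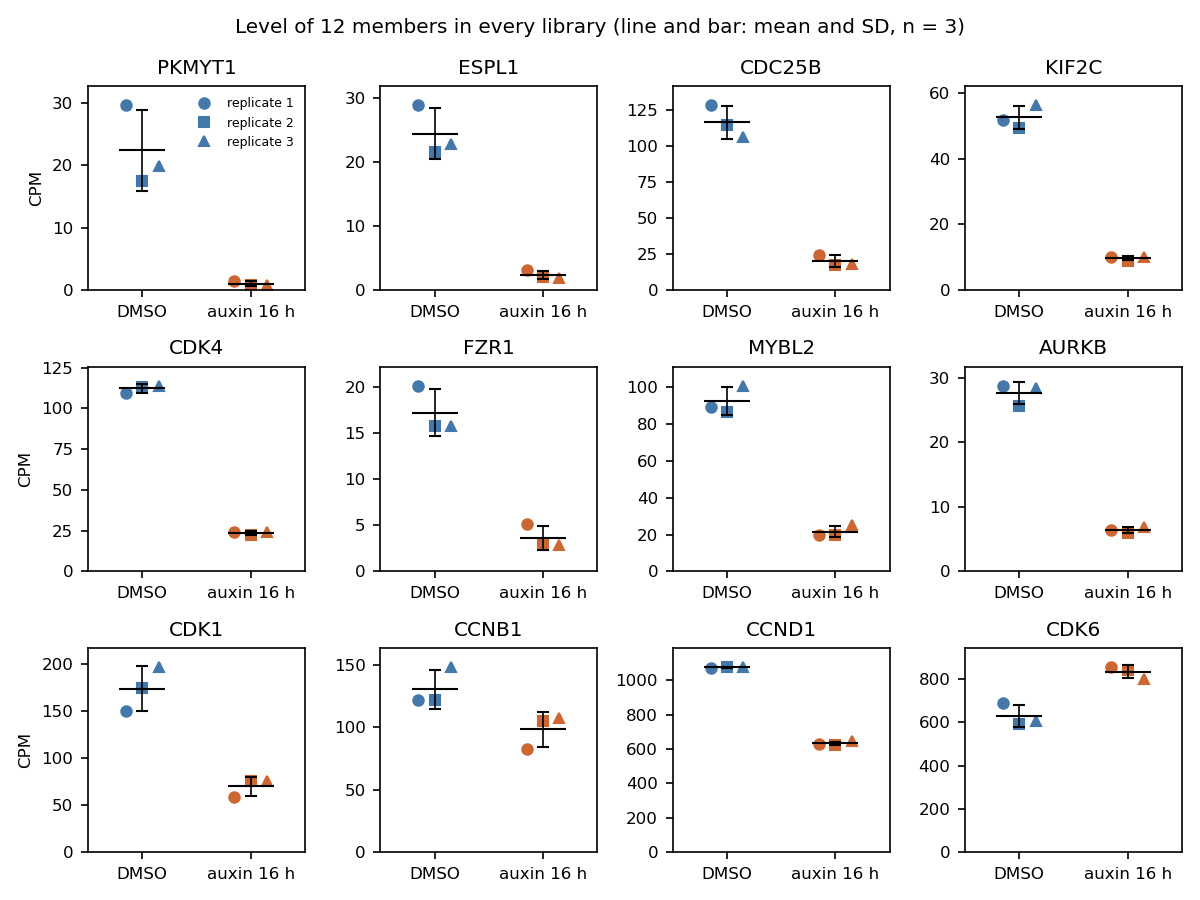
CPM with TMM factors of 12 of the genes in each library, DMSO and auxin 16 h, each panel starting at 0; points are libraries, and the bars give the mean and the SD over 3 libraries. In PKMYT1, ESPL1, CDC25B, KIF2C, CDK4, FZR1, MYBL2 and AURKB the auxin points lie near the bottom of the panel, in CCNB1 they lie close under the DMSO points, and in CDK6 they lie above them.

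All 8 cyclins were lower, with a median log2 fold change of −0.93. CCNF, an F-box cyclin that marks proteins for destruction in G2 (ENSG00000162063.12, chr16:2429394-2458854), fell most, from 39.7, 33.6 and 39.1 CPM to 9.86, 8.94 and 9.60 CPM (3.96-fold, log2 fold change −1.98, SE 0.09, adjusted p = 5.68e-06). CCNE2, a cyclin of S phase entry, had 146, 150.1 and 168 CPM against 62.5, 63.6 and 66.1 CPM (log2 fold change −1.27, SE 0.07, adjusted p = 1.31e-05). CCND1, the D cyclin most used by epithelial cells, was the most abundant member, at a mean of 293 TPM with DMSO. It had 1072, 1073 and 1078 CPM with DMSO and 627, 625 and 645 CPM after auxin, a 1.70-fold fall (log2 fold change −0.77, SE 0.06, adjusted p = 4.49e-05). The libraries of CCND1 within a group differed by far less than the groups did. CCNB1, the main cyclin of mitosis, moved less: 122, 121 and 148 CPM against 82.2, 105 and 107 CPM (log2 fold change −0.41, SE 0.13, adjusted p = 0.0297). Its call was lost without DMSO replicate 3 and with upper-quartile factors (adjusted p up to 0.0922). Between these lay CCND3 at −1.15, CCNA2 at −1.10, CCNB2 at −0.76 and CCNE1 at −0.36. CCNA2 and CCNB1, which both bind CDK1, thus had unequal log2 fold changes of −1.10 and −0.41, beside −1.31 for CDK1 itself; the differences between genes were not tested.

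All 8 kinetochore and centromere genes were lower, with a median of −1.03. The NDC80 complex binds microtubules and has 4 subunits, all among the members. SPC24 fell most, from 24.9, 26.9 and 31.2 CPM to 6.59, 7.26 and 8.65 CPM (3.69-fold, log2 fold change −1.89, SE 0.13, adjusted p = 3.37e-05). SPC25 had 33.2, 34.9 and 40.2 CPM against 10.7, 12.0 and 13.9 CPM (log2 fold change −1.57, SE 0.12, adjusted p = 4.71e-05). NDC80 itself fell by 1.32 and NUF2 by 1.06 on the log2 scale, so each of the 4 subunits was at least 2-fold lower. Outside the complex, KNL1, the platform for the checkpoint kinases, fell by 1.00, CENPA, the centromeric histone, by 0.96, the motor protein CENPE by 0.93 and CENPF by 0.68. CENPA overlaps SLC35F6 on its own strand over 16943 bases; SLC35F6 had 14.7 times its counts and was higher (log2 fold change 0.66).

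The 6 kinesins, motor proteins of the spindle, were all lower with a median of −1.31. KIF2C, which depolymerizes microtubules at kinetochores (ENSG00000142945.12, chr1:44739818-44767767), went from 51.7, 49.3 and 56.4 CPM to 10.3, 9.06 and 10.2 CPM (5.33-fold, log2 fold change −2.41, SE 0.08, adjusted p = 2.41e-06). KIF11, which pushes the spindle poles apart, had 115, 112 and 129.5 CPM against 42.0, 47.2 and 48.7 CPM (log2 fold change −1.37, SE 0.08, adjusted p = 1.92e-05). The chromosome-bound KIF22 and the alignment motor KIF18A fell by 1.35 and 1.28 on the log2 scale. The cytokinesis motors KIF20A and KIF23 had values of −1.05 and −0.86. Every kinesin had its groups apart, and KIF23 was the one less than 2-fold lower.

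The 3 other spindle and cytokinesis genes were lower with a median of −0.80. PRC1, which bundles midzone microtubules, had 124, 131 and 149 CPM with DMSO and 62.6, 72.7 and 78.1 CPM after auxin (log2 fold change −0.92, SE 0.10, adjusted p = 0.000307). ANLN, which encodes the furrow protein anillin, had 381, 402 and 450.1 CPM against 207, 243 and 258 CPM (log2 fold change −0.80, SE 0.10, adjusted p = 0.000592). TPX2, which activates AURKA on the spindle, fell by 0.58 on the log2 scale. TOP2A, the topoisomerase that untangles sister chromatids, had 220.1, 237 and 277 CPM against 121, 152 and 161 CPM (log2 fold change −0.76, SE 0.13, adjusted p = 0.00237). In all 4 genes the groups were apart and DMSO replicate 3 was the highest library. DMSO replicate 3 was the highest DMSO library in 42 of the 54 members, and auxin replicate 1 the lowest auxin library in 34 of the 54.

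In the control of anaphase and mitotic exit, separase and one activator of the anaphase-promoting complex fell far more than the other members of this group. ESPL1, which encodes separase (ENSG00000135476.11, chr12:53268299-53293643), went from 29.0, 21.6 and 22.8 CPM to 3.19, 2.06 and 2.01 CPM. It was 10.1-fold lower (log2 fold change −3.33, SE 0.22, adjusted p = 2.68e-05) and the least abundant member per length with DMSO, at 4.14 TPM. PTTG1, which encodes securin, the inhibitor of separase, fell by 0.53 on the log2 scale (SE 0.15, adjusted p = 0.0227), a call lost without DMSO replicate 2 or 3 (adjusted p up to 0.0699). FZR1, the CDH1 activator of late mitosis and G1 (ENSG00000105325.13, chr19:3506273-3538330), had 20.1, 15.8 and 15.7 CPM against 5.16, 2.87 and 2.81 CPM (4.74-fold, log2 fold change −2.25, SE 0.26, adjusted p = 0.000338). Replicate 1 was the highest library of FZR1 in both groups. CDC20, the activator of early mitosis, had 118, 108 and 124 CPM against 53.7, 53.8 and 63.1 CPM (2.05-fold, log2 fold change −1.04, SE 0.09, adjusted p = 7.53e-05). UBE2C, the ubiquitin-conjugating enzyme of the complex, fell by 0.91.

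Both transcription factors among the members were lower. MYBL2, which joins the MuvB complex on mitotic promoters (ENSG00000101057.15, chr20:43667019-43716496), went from 89.3, 86.5 and 101 CPM to 20.0, 19.7 and 24.9 CPM (4.28-fold, log2 fold change −2.10, SE 0.11, adjusted p = 1.13e-05). FOXM1, which joins the same complex in G2, had 137, 107 and 122 CPM against 57.3, 50.1 and 58.5 CPM (2.21-fold, log2 fold change −1.14, SE 0.10, adjusted p = 0.000112). Neither gene had overlapping groups.

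Mitotic promoters are known for the CHR element, read by the MuvB complex, and for CCAAT boxes, and the promoters of the members were read for both. RefSeq sequences (GRCh38.p14, 250 bases before to 50 after the annotated start) were matched by symbol for 41 of the 54. The letters searched on both strands were TTTGAA or TTCGAA for the CHR, CCAAT for the CCAAT box, and TTTCCCGC, TTTGGCGC, TTTCGCGC or TTTGCCGC for an E2F site; no motif was required to be free of another. The stretches shown end before the first annotated exon base and were picked for contrast: 4 lower genes with both motifs, CDC25A with CCAAT and E2F letters but no CHR, and CDC25C with none of the 3. They are ESPL1 at chr12:53268179-53268298 (plus strand), KIF11 at chr10:92593010-92593129 (plus), CDC20 at chr1:43358861-43358954 (plus), CCNF at chr16:2429327-2429393 (plus), CDC25A at chr3:48188418-48188537 (minus) and CDC25C at chr5:138338356-138338475 (minus). Each reads 5′ to 3′ on the strand of its gene, and capitals mark the matches, ATTGG being CCAAT and TTCAAA being TTTGAA on the other strand.
ESPL1: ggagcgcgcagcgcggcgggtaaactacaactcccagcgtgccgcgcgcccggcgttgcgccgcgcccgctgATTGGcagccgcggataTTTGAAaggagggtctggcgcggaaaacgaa
KIF11: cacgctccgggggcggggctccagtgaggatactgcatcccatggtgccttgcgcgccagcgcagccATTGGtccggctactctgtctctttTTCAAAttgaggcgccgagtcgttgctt
CDC20: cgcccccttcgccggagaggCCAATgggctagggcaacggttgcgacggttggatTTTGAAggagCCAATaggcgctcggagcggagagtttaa
CCNF: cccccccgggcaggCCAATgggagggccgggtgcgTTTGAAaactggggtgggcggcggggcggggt
CDC25A: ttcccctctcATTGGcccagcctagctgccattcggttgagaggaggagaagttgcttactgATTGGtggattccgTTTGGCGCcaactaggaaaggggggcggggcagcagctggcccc
CDC25C: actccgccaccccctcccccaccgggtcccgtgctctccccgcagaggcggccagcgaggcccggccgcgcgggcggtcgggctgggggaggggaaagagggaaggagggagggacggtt

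Counted from the RefSeq start, the CHR letters began 31 bases before it in ESPL1, 28 in KIF11, 65 in CDC20 and 85 in CCNF. Each had a CCAAT box upstream of its CHR. The stretches shown for CDC20 and CCNF leave out the last 26 and 53 bases before that start, which are annotated as exon. GENCODE starts can differ from RefSeq starts: the GENCODE gene of KIF11 begins at chr10:92593286, beyond the stretch shown. Over the 41 promoters, 24 (58.5%) held a CHR, against 16.4% of all 35116 promoters of the table. A CCAAT box was found in 26 (63.4%, against 34.6%), an E2F site in 3 (7.32%, against 3.31%), and both CHR and CCAAT in 19 (46.3%, against 6.38%). A closer set is the 10880 tested protein-coding genes outside the list that have a promoter. There the shares were 11.1% for CHR, 36.5% for CCAAT, 5.27% for E2F and 4.59% for both CHR and CCAAT, so that the E2F share of the members was near theirs. Median falls were similar with and without these letters, and whether the elements act on the members' levels was not tested. Members with both motifs had a median log2 fold change of −0.96 (n = 19) and the other members with a promoter had −1.08 (n = 22), and the ranges overlapped, at −3.33 to −0.38 and −2.53 to 0.40. Among tested protein-coding genes outside the list, the median was −0.01 for the 499 with both motifs and −0.01 for the rest, and 36.3% and 33.2% of them were called lower. CDC25C, with none of these letters in the window read at its RefSeq start, fell by 1.56 on the log2 scale. CDC20, with CHR and CCAAT letters, fell by 1.04. Both were picked for contrast, so the pair cannot show whether the elements matter, and CDC25C may carry them outside that window. A match is a description of letters and shows no binding. Only these exact letters near the annotated start were searched, so a missing match does not show that the element is absent.

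The surrounding pathway was followed in 142 further genes, in 9 lists, of which 141 could be tested and CCND2 was too low. Of these, 95 passed as lower, 19 as higher and 27 did not pass, with a median log2 fold change of −0.70. The background for these counts and for those of each list is 26.9% of all genes tested lower and 25.4% higher. Centrosome and centriole genes were lower in 9 of 9 (median −0.90), led by PCNT at −1.78, the pericentriolar scaffold, and SASS6 at −1.26, the cartwheel protein of new centrioles. Other centromere and kinetochore genes were lower in 27 of 30 (median −0.98). CENPT, a link between centromeric DNA and the NDC80 complex, had 11.5, 7.33 and 8.30 CPM against 1.23, 0.565 and 0.799 CPM (log2 fold change −3.37), and ZWINT, the partner of KNL1, had 60.9, 55.0 and 58.4 CPM against 7.76, 6.01 and 6.08 CPM (log2 fold change −3.13). Both fell further than any kinetochore gene among the 54.

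Other spindle, kinesin and cytokinesis genes were lower in 17 of 19 (median −0.97), with TACC3, a spindle microtubule protein, at −2.33 and KIFC1, a minus-end motor, at −1.98. Cohesin and condensin genes were lower in 16 of 20 (median −0.71). NCAPH2, a subunit of condensin II, had 16.2, 14.1 and 16.8 CPM against 1.74, 1.33 and 1.62 CPM (log2 fold change −3.32), and SMC1A, a core cohesin subunit, was at −1.28. Other mitotic kinases and regulators were lower in 9 of 12 (median −0.79), with GTSE1 at −1.48 and the kinase MELK at −1.12. In that list ARPP19 and ENSA, small inhibitors of the phosphatase PP2A, passed as higher by 0.17 and 0.22 on the log2 scale; their calls were lost in 12 and 9 of 18 alternatives, among them leaving out any of the 3 DMSO libraries.

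The 4 remaining lists, on cell cycle control and the anaphase-promoting complex, held genes called in both directions, as did the whole table with 25.4% of genes higher and 26.9% lower. Of 14 subunits of the anaphase-promoting complex, 7 were higher and 2 lower (median 0.14), and the count of higher subunits was 4 without DMSO replicate 1, DMSO replicate 2 or auxin replicate 2, and 1 in limma on TPM. ANAPC16 rose from 35.4, 40.0 and 38.2 CPM to 67.2, 70.5 and 69.3 CPM (log2 fold change 0.87), while ANAPC2 and ANAPC15 had values of −1.04 and −0.97; the call on ANAPC2 was lost with a GC correction and in limma on TPM (adjusted p up to 0.342). Its activators CDC20 and FZR1 and its enzyme UBE2C, described above, were all lower. Of 18 other cyclins and CDKs tested, 6 were higher and 3 lower (median 0.13). With the replicate block the counts were 9 higher and 6 lower, and in limma on TPM 1 was higher and 2 were lower. CCNH, of the CDK-activating kinase, was at 0.65, CDK19 at −0.88, and CCNG2 at −1.15 with DMSO libraries far apart at 23.6, 53.8 and 32.9 CPM; its call was lost without auxin replicate 3 (adjusted p = 0.0695).

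In the DREAM and MuvB complex, which represses and then activates mitotic promoters, 7 of 11 genes were lower and 2 higher (median −0.38). E2F4, the repressor E2F of the complex, fell from 64.9, 53.3 and 51.6 CPM to 5.38, 3.31 and 3.62 CPM (log2 fold change −3.78), and LIN37 was at −1.86. RBL2, the pocket protein that binds E2F4, and E2F5 rose by 0.68 and 0.60 on the log2 scale, calls that were lost in limma on TPM (adjusted p up to 0.203 and 0.166). Of 8 CDK inhibitors 5 were lower and 2 higher (median −0.74). CDKN1C, which encodes p57, had a value of −3.41 and CDKN2C, which encodes the CDK4 and CDK6 inhibitor p18, −2.64. CDKN2B, another inhibitor of CDK4 and CDK6, was at 0.51, and its call was lost in limma on TPM (adjusted p up to 0.364). CDKN1A, which encodes p21, was at 0.17 (343, 320.3 and 325 CPM against 381, 365 and 368 CPM), and its call was lost in 10 of 18 alternatives, among them leaving out any 1 of the 6 libraries. Activators and inhibitors of the cycle were thus both among the lower genes.

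**Figure D3:**
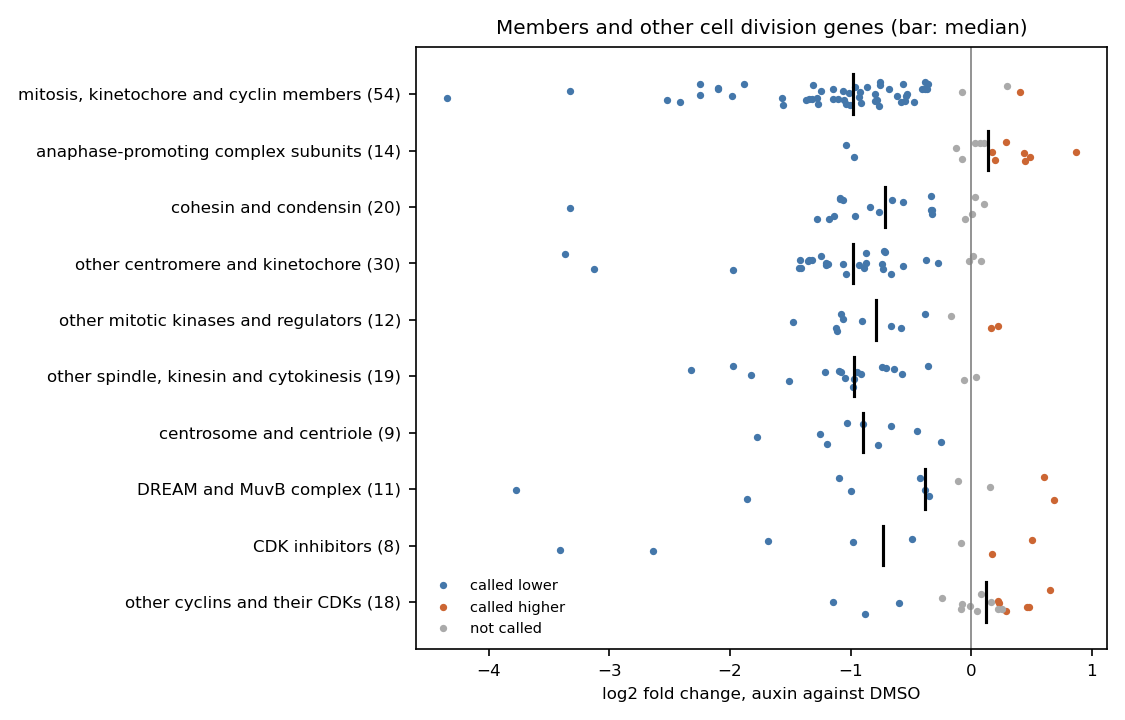
Log2 fold change, auxin 16 h against DMSO, of the 54 genes and of the genes in 9 pathway lists; points are genes and bars are medians. The medians lie at −0.98 for the 54 genes, between −0.98 and −0.38 for 7 lists, and at 0.14 and 0.13 for the anaphase-promoting complex subunits and the other cyclins and CDKs.

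Deposited transcript levels were used to ask whether the forms of these RNAs changed as well. For 53 members with a mean gene level of at least 1 TPM and more than 1 transcript, the share of each of 470 transcripts in its gene's TPM was compared. A share was called shifted when the group means differed by at least 10 percentage points and the libraries did not overlap. That held for 24 transcripts (5.11%, against 3.98% of all transcripts considered) in 12 members (22.6%, against 20.8% of genes), so such shifts were about as common in these genes as elsewhere. No test supports a single shift: 3 against 3 libraries cannot go below an exact two-sided permutation p of 0.1, and requiring no overlap fixes that value for every shifted share.

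The 5 largest shifts were in 5 genes. CDC25B-204, a protein-coding form, rose from 6.38%, 2.33% and 3.59% of its gene to 40.2%, 46.4% and 45.4%, while CDC25B-203 went from 6.83%, 32.0% and 29.3% to 0 in every auxin library. CENPA-201, a protein-coding form of 4 exons, rose from a mean of 8.85% ± 5.14 (SD, n = 3) to 45.0% ± 9.06 (SD, n = 3). CDK4-201, the main protein-coding form, fell from 87.1%, 84.8% and 82.9% to 45.3%, 54.4% and 51.7%. FZR1-204, an annotated retained-intron form of 2 exons, rose from 1.70%, 0.699% and 1.52% to 33.9%, 30.3% and 27.8%. PKMYT1-206, a processed transcript with no annotated protein, rose from 2.26%, 3.41% and 2.72% to 24.0%, 34.6% and 33.9%. In all 5 the 2 groups were well apart; transcript levels are estimates that divide shared reads, and their posterior SD reached 7.53% of the gene's count in CENPA-201. Of the shifted transcripts that fell, 13 of 14 were protein-coding; of those that rose, 5 of 10 were.

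Summed over transcripts, the protein-coding share of a gene's TPM was lower in every auxin library than in any DMSO library for 13 of the 53 members (24.5%, against 17.8% of 10619 protein-coding genes), and higher in none (8.59% of all). In FZR1 the share was 37.6%, 35.0% and 37.2% with DMSO and 14.0%, 13.4% and 12.7% after auxin. Its protein-coding forms were 9.95-fold lower, from 4.38 to 0.440 TPM, and its other forms 2.68-fold lower. In AURKB the share fell from 76.1% ± 6.02 to 51.6% ± 7.54 (SD, n = 3 each), with coding forms 6.38-fold lower and other forms 2.18-fold lower. In PKMYT1 it fell from 56.1% ± 2.18 to 35.9% ± 4.46 (SD, n = 3 each), with coding forms 25.2-fold and other forms 11.9-fold lower. In CDK4 it fell from 97.1% ± 0.559 to 86.3% ± 3.90 (SD, n = 3 each): coding forms went from 64.8 to 15.3 TPM while other forms were at 1.96 and 2.50 TPM. ESPL1 went from 71.9% to 47.7%, from deposited transcript levels that add up to 0.457 TPM after auxin and are given to 0.01 TPM, so that share is coarse.

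**Figure D4:**
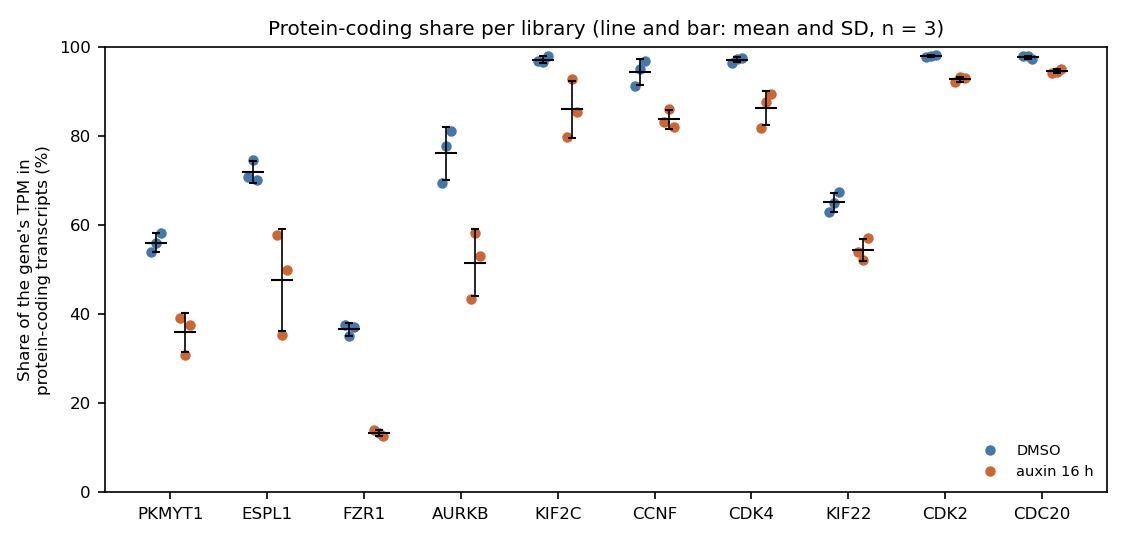
Protein-coding share of the gene's TPM, in percent, in each library for 10 of the genes; points are libraries, DMSO and auxin 16 h, and black marks give the mean and SD over 3 libraries. Every auxin point lies below every DMSO point of the same gene, with FZR1 at 12.7% to 14.0% after auxin and CDC20 at 94.1% to 95.1%.

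Retained-intron forms took a larger share in every auxin library in 8 of 37 members that have such forms (21.6%), which was close to the 21.9% of 6698 genes. Among the 8, FZR1 had 63.3% ± 1.27 with DMSO and 86.4% ± 0.307 after auxin, AURKB 17.9% ± 5.79 and 37.2% ± 9.80, and CDK4 2.66% ± 0.547 and 12.9% ± 3.67 (SD, n = 3 each). PKMYT1 went the other way, from 40.4% ± 2.21 to 26.4% ± 0.710 (SD, n = 3 each). BUB3, whose total level did not pass the test, still shifted between 2 protein-coding forms: BUB3-201 went from 65.5%, 59.4% and 61.3% to 50.1%, 42.6% and 42.0%, and BUB3-204 rose from 26.9% to 40.4%. CDCA8 moved toward one form, CDCA8-202, from 66.9% to 91.3%.

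PKMYT1, ESPL1 and CDC25B, the members with the 3 lowest log2 fold changes, were among the 18 of highest GC content; KIF2C, the next lowest, was among the middle 18. Across the 54, the GC content of the gene's annotated transcripts and the log2 fold change had a Spearman correlation of −0.243 and a Pearson correlation of −0.427; over 14145 protein-coding genes the Spearman value was −0.364. These are correlations across genes of the same 6 libraries, given as a description. In the 18 members with the highest GC (52.2% to 66.5%) the median was −1.62 and 14 were at least 2-fold lower. The 18 with the lowest GC (35.5% to 42.5%) had a median of −0.97, with 9 at least 2-fold lower, and the middle 18 had −0.57, with 4. Other protein-coding genes in the same GC ranges had medians of −0.44, 0.11 and 0.18 for high, low and middle GC, and 50.9%, 22.2% and 18.3% of them were called lower. The members' median was below that of the other genes in each GC range. In the fit with a GC correction their median was −0.96 and 51 were called lower. There PLK1 was no longer called, BUB3 was called lower and MAD1L1 was called higher. An unchanged median does not mean that each member kept its value. The part of GC content in the members' values was not tested. Introns of the members were shorter than usual, with a median mean length of 1.66 kb against 3.11 kb for protein-coding genes, and their exons more numerous, with a median of 11.5 against 8.

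**Figure D5:**
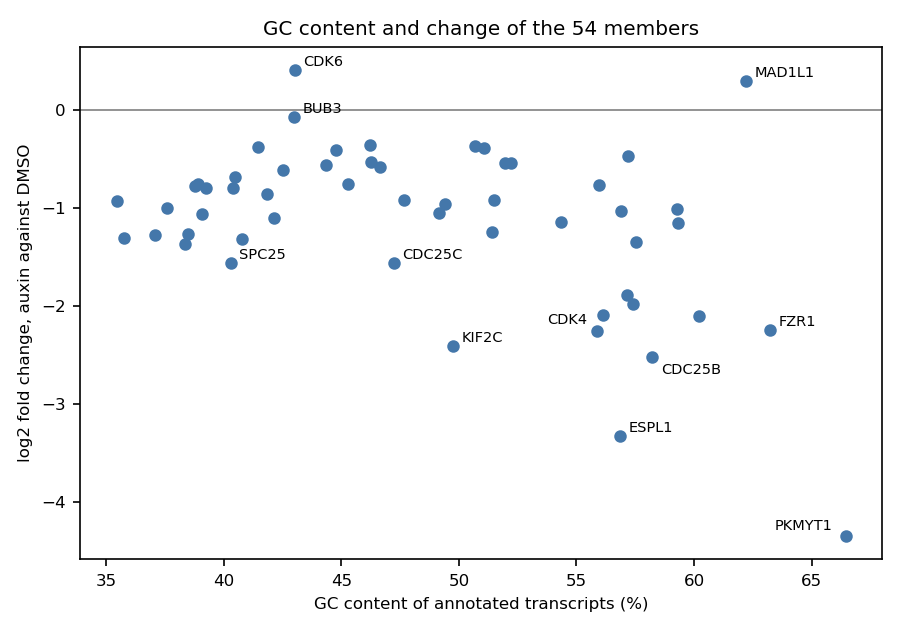
GC content in percent on the horizontal axis against the log2 fold change, auxin 16 h against DMSO, for the 54 genes; each point is a gene. PKMYT1, ESPL1, CDC25B and FZR1 lie at the lower right, at high GC content and low log2 fold change, KIF2C lies below −2 nearer the middle of the GC range, and CDK6 and MAD1L1 lie above 0.

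The calls were steady over most settings. In 44 of the 52 called members the call was the same in all 18 alternatives, and 47 to 52 members were called lower in each of them. The sizes of the changes were less steady than the calls. Over the alternatives the log2 fold change ran from −3.58 to −1.78 in ESPL1 and from −2.60 to −1.47 in FZR1. It ran from −1.15 to −0.49 in INCENP, from −1.28 to −0.63 in CCND3 and from 0.11 to 1.03 in MAD1L1. The share of all genes called lower moved at the same time, from 15.0% and 16.3% in limma on TPM, through 22.4% with upper-quartile factors, 26.0% with a GC correction and 28.5% with library sizes alone, to 34.4% with the replicate block, where 35.5% were called higher. With the block 51 members were called lower and 2 higher, MAD1L1 having joined CDK6.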

How the data were processed

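RNA-seq libraries were analysed for 3 samples of HCT116 cells with auxin and 3 with DMSO. Ribosomal RNA was removed from total RNA and stranded libraries were read from both ends, per the labels' protocols. The authors deposited 1 gene table and 1 transcript table per library; per the file headers these hold an expected count, a TPM and a posterior SD of the count, which is another quantity given in counts. The deposited expected counts are not normalized, and the deposited TPM values are scaled by length to a common total. Per the submitters' processing notes, bcl2fastq 2.20, STAR, DESeq2, GRCh38 and hg38 were used, with no role given; the quantifier, the annotation and the use of strand are not given in the sources used here. Of the gene IDs, 58780 match GENCODE release 29 on GRCh38, the source of coordinates; the other 746, 649 of them plain numbers, match none of its genes, took at most 0.00111% of counts and were left out.

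Expected counts were rounded and tested with edgeR 4.0.16 in R 4.3.3 (filterByExpr, TMM factors, quasi-likelihood test, Benjamini-Hochberg over 19725 genes, threshold 0.05); the script was tested on simulated data. SE is the log2 fold change over the root of F. The deepest library had 625895062 and the shallowest 234037969 expected counts; intervals from counts would cover counting error only. Transcript shares came from TPM. CPM used the TMM factors, and no sample was dropped or imputed. Same-numbered libraries deviated together (r = 0.651, 0.265 and 0.276 for numbers 1, 2 and 3, across genes). DMSO 3 and auxin 2 had r = 0.312, above the values for numbers 2 and 3, so pairing by number was clear for number 1 only. The main fit left the numbers out, and a fit with the replicate block was run as an alternative. DESeq2 1.42.0, limma 3.58.1 and the other alternatives are in the closing section. Members, lists and tests were chosen with earlier results of these data known. Values in every library are given for the 2 members of each role with the largest absolute log2 fold change and for CDK1, CCNB1, PLK1, AURKA, CCND1, CDC20 and TOP2A, and the 2 called genes with the largest change are named per list, and the 5 largest transcript shifts; CDK6, BUB3, MAD1L1, the other list genes and the other transcripts were picked after their values were seen. Sequences are from RefSeq, and scripts ran in Python 3.11.15. Overlaps of members with other genes are given for a few pairs only, and some are not reported here.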

Additional observations from a re-analysis of the deposited data

How the results depend on the processing

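Of 972 recomputed log2 fold changes of the members, 941 kept their direction and side of the threshold, 20 kept the direction but lost the call, 10 gained one, and 1 changed sign: BUB3, not called in either fit, at 0.0485 with upper-quartile factors against −0.07. Members called higher numbered 1; the count was 2 with DESeq2, GC corrected offsets with or without the replicate block, the replicate block alone, replicates 2 and 3 only, upper-quartile factors, and without DMSO replicate 1, since MAD1L1 joined. It was 0 with library sizes only in edgeR (1 at an unadjusted p under 0.05) and 0 in both limma-trend fits, with a pseudocount of 1 or 0.1 on TPM (0 at an unadjusted p under 0.05). The replicate block changed no other member's call. Over the whole table, genes called higher after auxin and genes called lower after auxin numbered 5010 and 5311, but 970 and 2966 in limma-trend with a pseudocount of 1 and 1017 and 3223 with 0.1; upper-quartile factors gave 6534 and 4416 and the block 7005 and 6789. These scales moved the median gene by −0.14, −0.15 and 0.12, with the members' median at −1.08, −1.15 and −0.86. Leaving out 1 library gave 48 to 51 members lower (51 with all) and 1 to 2 higher, 3876 to 4979 genes higher, 4493 to 5575 lower, 103 to 108 pathway genes called (114 with all) and 22 to 27 shifted transcripts (24 with all). Shifted transcripts numbered 41 at 5 percentage points and 11 at 20. WEE1, CCNE1 and CDCA8 lost their call in limma-trend alone (adjusted p up to 0.12, 0.0607 and 0.125), and BUB3 was called lower with library sizes only and with both GC corrections. The cause of these changes was not tested. With 3 libraries a group, small changes such as that of BUB3 may go undetected.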
